A study of Rattus norvegicus with 12 samples.

Results

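The miR-103, miR-107 and miR-101 families are described here in the hippocampus of adult rats, 3 h after a single dose of ethanol or vehicle. Members were all mature miRNAs whose name carried the stem rno-miR-103, rno-miR-107, rno-miR-101a or rno-miR-101b, on either arm of the hairpin. This gave 9 of the 753 mature miRNAs listed for each library: rno-miR-101a-3p, rno-miR-101a-5p, rno-miR-101b-3p, rno-miR-101b-5p, rno-miR-103-3p, rno-miR-103-1-5p, rno-miR-103-2-5p, rno-miR-107-3p and rno-miR-107-5p. The prefix rno, for rat, is left out from here on. Of these, 5 had enough reads to be tested between the groups, namely the 3p arms of miR-101a, miR-101b, miR-103 and miR-107, and miR-101a-5p.

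Small RNA was sequenced from the hippocampus of male Sprague Dawley rats aged P70 to P80 and bred in the study's own colony. Rats received ethanol at 4 g/kg or vehicle by intraperitoneal injection, and tissue was taken 3 h later. Libraries of 4 vehicle rats (animals 9, 10, 19 and 20) and 8 ethanol rats (animals 3, 4, 7, 8, 15, 16, 23 and 24) were analysed here, 1 library per rat, out of 8 rats per group in the labels. The labels give the right hippocampus and the study's methods the dorsal hippocampus. The litter and the cage of each rat are not in the labels. The methods allow more than 1 pup of a litter in a group, and describe rats housed in pairs. Whole tissue was used, so a miRNA lost from some cells and a smaller share of the cells that carry it cannot be told apart.

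The estimated counts summed to between 2243413 and 4917928 per vehicle library and between 1960704 and 3598771 per ethanol library. The log2 total was lower by 0.38 on average in ethanol rats, and a two-sided exact permutation test did not separate the groups (p = 0.156). A count of 3 was taken as the floor of detection, which covers counting error only, and corresponded to 0.610 to 1.53 CPM (counts scaled to a library total of 1000000). No library was a copy of another: in each of the 66 pairs the chi-square exceeded its degrees of freedom 39.1 times or more. Libraries stood apart in markers of muscle (miR-206-3p, miR-133b-3p, miR-133a-3p, miR-1b and miR-1-3p): their summed level was 1626 to 1765 CPM in vehicle rats 9, 19 and 20 and ethanol rat 16, and 112 to 290.4 CPM in the other 8 rats. The 4 muscle-rich libraries thus hold 3 of the 4 vehicle rats and 1 of the 8 ethanol rats, and vehicle rat 10 is the only vehicle rat among the rest. Values with and without them are given below for the tested members other than miR-103-3p, and for the ratio between the families. The part of these libraries in the members' levels was not tested. Level always means CPM of the estimated counts after edgeR's trimmed mean of M values (TMM) scaling. Adjusted p-values come from edgeR's quasi-likelihood test, with the Benjamini-Hochberg method over all miRNAs tested. Each read covers 1 mature miRNA strand, so levels of different miRNAs were compared without a length correction. No correction was made for how readily each strand enters a library, so comparisons between miRNAs are of read levels.

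A miRNA is cut from a hairpin by Drosha and Dicer, and 1 of the hairpin's arms, 5p or 3p, usually supplies most of the mature strand. The mature strand guides Argonaute to mRNAs that pair with its seed, the bases near its 5′ end, and so lowers their translation and stability. The miR-103 and miR-107 hairpins lie in introns of the pantothenate kinase genes, which encode the enzymes that start coenzyme A synthesis. These miRNAs are known as regulators of insulin sensitivity and of Dicer itself. The miR-101 family is known for targeting Ezh2, the methyltransferase that places the repressive H3K27 methyl mark, and in the brain for restraining neuronal excitability.

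The sequences below are shown because the members within each family are nearly the same molecule. They are given 5′ to 3′ from the RefSeq annotation of GRCr8, with the seed (bases 2 to 8) in capitals.
miR-101a-3p: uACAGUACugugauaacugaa
miR-101b-3p: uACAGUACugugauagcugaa
miR-103-3p: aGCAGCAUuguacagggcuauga
miR-107-3p: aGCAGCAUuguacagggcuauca
miR-101a-5p: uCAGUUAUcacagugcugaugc
miR-101b-5p: uCGGUUAUcaugguaccgaugc

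Counted from 1 at the 5′ end, miR-107-3p differed from miR-103-3p by the single substitution G22C in 23 bases. The first 21 bases were shared, and only 1 base followed the difference. Between miR-101a-3p and miR-101b-3p the single substitution was A16G in 21 bases, with 15 shared bases before it and 5 after it. Each pair therefore had 1 seed. A read that ended before base 22 could not tell miR-103-3p from miR-107-3p, whereas a read of miR-101 needed to reach base 16. Of the 9 members, 7 were matched by name in the RefSeq table, which did not hold miR-103-1-5p and miR-107-5p under those names.

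The hairpins are shown because they bear on which members can be separated at all. The 2 miR-103 loci and the miR-101a locus are written 5′ to 3′ with the mature arms annotated in RefSeq in capitals.
Mir103a1: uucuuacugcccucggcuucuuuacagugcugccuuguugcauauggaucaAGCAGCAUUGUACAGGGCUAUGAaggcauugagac
Mir103a2: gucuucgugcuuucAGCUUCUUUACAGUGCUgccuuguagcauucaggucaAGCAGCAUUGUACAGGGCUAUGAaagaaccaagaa
Mir101a: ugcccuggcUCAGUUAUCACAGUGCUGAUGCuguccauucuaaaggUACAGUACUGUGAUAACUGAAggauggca

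Mir103a1 lies at chr10:20748474-20748559 on the plus strand within Pank3, and Mir103a2 at chr3:138963227-138963312 on the plus strand within Pank2 (GRCr8). Both carry the same 3p arm, so miR-103-3p could not be assigned to either locus, and only their 5p arms are listed apart. Mir107 lies at chr1:241750418-241750504 on the minus strand within Pank1. For the miR-101 family, Mir101a lies at chr5:121081683-121081757 on the minus strand within the long non-coding RNA gene LOC120102934. Mir101-2, the source of miR-101b, lies at chr1:236273922-236274018 on the plus strand within Rcl1. Each of the 5 hairpins lies on the strand of its host gene.

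The 3p arms of both families were abundant in every rat, and none differed between ethanol and vehicle past the threshold. By mean level over the 12 libraries, miR-101a-3p ranked 41st, miR-101b-3p 50th, miR-103-3p 67th and miR-107-3p 72nd of the 753 miRNAs. The 3p arms of miR-101a and miR-101b together took 0.558% to 0.769% of a library, and those of miR-103 and miR-107 together took 0.277% to 0.371%. The 5p arms were far lower.

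miR-101a-3p was the most abundant member. Its level in vehicle rats 9, 10, 19 and 20 was 3299, 3185, 3506 and 3205 CPM. In the 8 ethanol rats the lowest was 3096, the median 3691 and the highest 4298 CPM. Most ethanol rats lay above the vehicle rats: 6 of 8 were above every vehicle rat, and rat 16 was below all of them, so the groups overlapped. Means were 3299 ± 147 CPM (SD, n = 4) in vehicle and 3699 ± 356 CPM (SD, n = 8) in ethanol. The log2 fold change was 0.17 (SE 0.078, 95% interval -0.0031 to 0.33), a fold of 1.12, with a Benjamini-Hochberg adjusted p of 0.971 (edgeR quasi-likelihood). The unadjusted p from that edgeR test was 0.0538, the 21st lowest of the 420 miRNAs tested, and the two-sided exact permutation test of log2 CPM gave p = 0.0606. That unadjusted p was 0.0246 when miRNAs were required to have at least 10 reads in at least 10 libraries (edgeR). Another 4 settings that kept all 12 libraries also put it under 0.05, with an adjusted p of at least 0.854 in each (edgeR or DESeq2). The remaining settings that kept all 12 libraries left the unadjusted p above 0.05, for example at 0.139 with library totals alone (edgeR). Leaving out 1 rat, it ran from 0.0124 without ethanol rat 16 to 0.146 without vehicle rat 10 (edgeR).

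miR-101b-3p differs from miR-101a-3p by A16G and has the same seed. Its level in vehicle rats 9, 10, 19 and 20 was 2731, 2843, 2768 and 2620 CPM, a narrow range. In ethanol rats it was 2583 CPM at the lowest, 2903 at the median and 3449 at the highest. Here 5 of 8 ethanol rats lay above every vehicle rat and 1, again rat 16, lay below. The means were 2740 ± 92.9 CPM (SD, n = 4) and 2977 ± 307 CPM (SD, n = 8). The log2 fold change of 0.12 (SE 0.080, 95% interval -0.052 to 0.29) had an adjusted p of 0.971 (edgeR quasi-likelihood, Benjamini-Hochberg).

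The sum of the 2 miR-101 3p arms does not depend on how reads were divided between them. The vehicle mean was 6039 ± 183 CPM (SD, n = 4), and the ethanol mean was 6676 ± 654 CPM (SD, n = 8). After TMM scaling, 7 of 8 ethanol rats exceeded every vehicle rat, and as a plain share of the library 5 of 8 did. Rats 7 and 8, at 6287 and 6277 CPM, were barely above the highest vehicle rat, 19, at 6273 CPM. Rat 16 was below all vehicle rats on both scales. As a plain share rat 8 was below them too, at 0.596% against 0.605% in vehicle rat 9, the lowest. The log2 difference of 0.14 did not pass the two-sided exact permutation test (p = 0.0828), in which the smallest possible p was 0.00202. This sum was added after the values were seen.

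Values are given here apart for the muscle-rich libraries, whose part in this comparison was not tested. Among the 8 other rats, miR-101a-3p was 3185 CPM in vehicle rat 10 and 3470.2 to 4298 CPM in the 7 ethanol rats, all 7 of which were above it. Among the 4 muscle-rich rats it was 3205 to 3506 CPM in the 3 vehicle rats and 3096 CPM in ethanol rat 16, which was below them. miR-101b-3p was 2843 CPM in vehicle rat 10 and 2732 to 3449 CPM in the 7 ethanol rats, and 2620 to 2768 against 2583 CPM in the muscle-rich rats. Leaving out the 4 muscle-rich libraries, the log2 fold change was 0.30 for miR-101a-3p and 0.15 for miR-101b-3p, with adjusted p of 0.829 and 0.888 (edgeR quasi-likelihood, Benjamini-Hochberg). That fit compares vehicle rat 10 alone with 7 ethanol rats and assumes that it varies as they do. Its unadjusted p for miR-101a-3p was 0.0435 in edgeR.

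miR-103-3p, the product of both miR-103 loci, held a nearly constant level. Vehicle rats 9, 10, 19 and 20 had 1539, 1716, 1571 and 1599 CPM. Ethanol rats had 1476 CPM at the lowest, 1552 at the median and 1771 at the highest. The ranges overlapped on both sides, with 2 ethanol rats above and 3 below every vehicle rat. Means of 1606 ± 77.1 CPM (SD, n = 4) and 1586 ± 109 CPM (SD, n = 8) gave a log2 fold change of -0.018 (SE 0.065, 95% interval -0.16 to 0.12), with an adjusted p of 0.997 (edgeR quasi-likelihood, Benjamini-Hochberg).

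miR-107-3p, from the Pank1 intron, was at 1446, 1828, 1324 and 1369 CPM in vehicle rats 9, 10, 19 and 20. Its lowest level in ethanol rats was 1195, its median 1415 and its highest 1600.3 CPM. Vehicle rat 10 stood above all 8 ethanol rats, whereas 2 ethanol rats, 3 and 4, stood below every vehicle rat. Means were 1492 ± 229.9 CPM (SD, n = 4) and 1395 ± 126 CPM (SD, n = 8). The log2 fold change was -0.096 (SE 0.096, 95% interval -0.30 to 0.11), with an adjusted p of 0.971 (edgeR quasi-likelihood, Benjamini-Hochberg). Without vehicle rat 10 the log2 fold change of miR-107-3p was -0.0033, so its size rested on that rat. Leaving out the 4 muscle-rich libraries, where vehicle rat 10 is the only vehicle rat left, it was -0.33 (edgeR, unadjusted p = 0.0374, adjusted p = 0.829). The levels of miR-103-3p and miR-107-3p summed to 3098 ± 300.1 CPM (SD, n = 4) in vehicle and 2981 ± 209.8 CPM (SD, n = 8) in ethanol, a log2 difference of -0.054 (two-sided exact permutation test, p = 0.469).

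**Figure D1:**
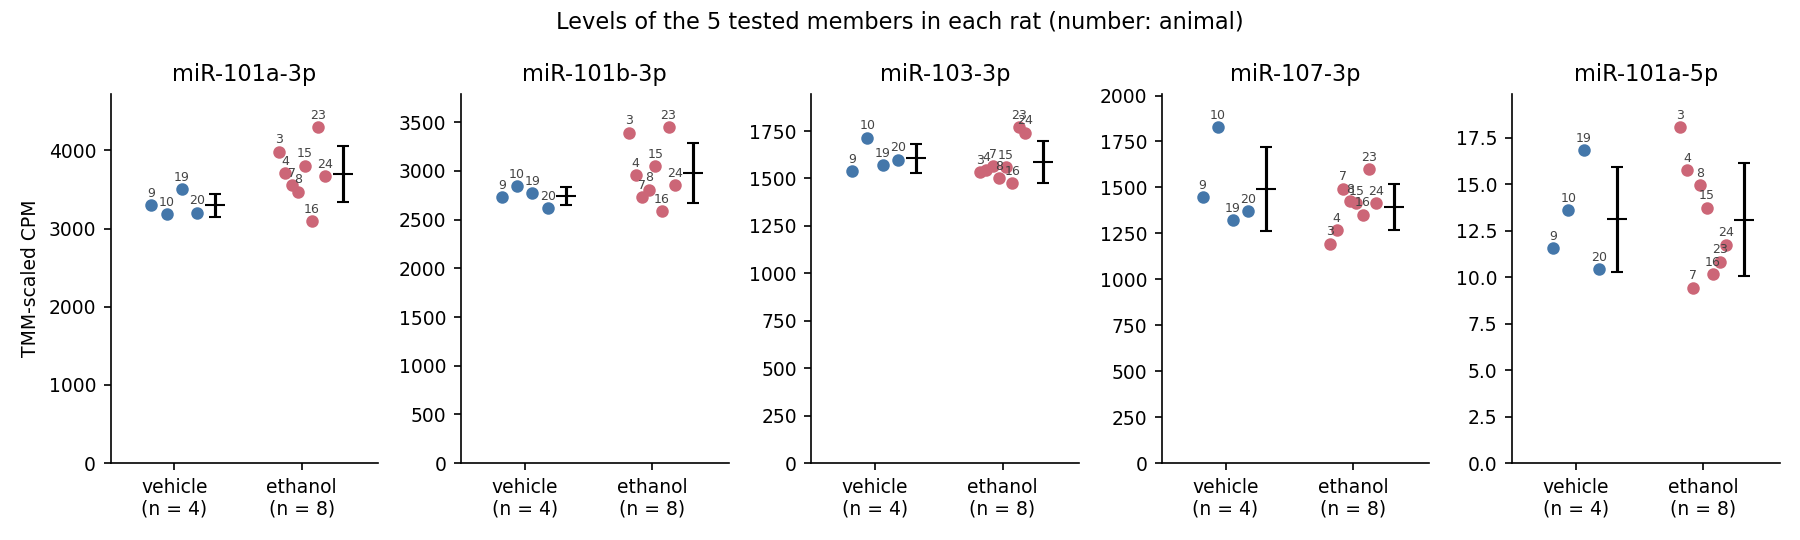
TMM-scaled CPM (linear axis from 0) of the 5 tested members in each of the 4 vehicle and 8 ethanol rats. Each point is 1 rat with its animal number, and the bars give the mean ± SD. The groups overlap for every member, miR-101a-3p included, whose means are 3299 and 3699 CPM.

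Across the 5 tested members, 0 had an adjusted p under 0.05 against 0% of the 420 miRNAs, and 0 had an unadjusted p under 0.05 against 4.05% (17 miRNAs). For 0 of the 5 members did the groups not overlap, against 0.238% of all tested miRNAs. Of those 17, 7 were higher in ethanol, against 11 of 18 with DESeq2 size factors and 4 of 19 with library totals alone. The estimates were above 0 for 2 members and below 0 for 3. The median log2 fold change of the 420 miRNAs was -0.015, and the lowest adjusted p among them was 0.971 by edgeR. The intervals given for each member show the differences that these libraries leave possible.

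miR-101a-5p, the other arm of the Mir101a hairpin, was read 18 to 80 times per library. Vehicle rats 9, 10, 19 and 20 had 11.6, 13.6, 16.8 and 10.4 CPM. The ethanol rats ranged from 9.44 to 18.1 CPM with a median of 12.7. Both extremes of the 12 libraries were ethanol rats, 7 at the bottom and 3 at the top. Means were 13.1 ± 2.81 CPM (SD, n = 4) and 13.1 ± 3.04 CPM (SD, n = 8). The log2 fold change was -0.0096 (SE 0.19, 95% interval -0.41 to 0.40) with an adjusted p of 1.00 (edgeR quasi-likelihood, Benjamini-Hochberg), so a change of this arm by up to 0.4 on the log2 scale in either direction was within the interval.

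The remaining 4 members, all 5p arms, were near or under the floor. miR-101b-5p was read 0 to 2 times, and it was listed at 0 in 6 libraries. miR-103-1-5p, the 5p arm of Mir103a1, had 0 to 6 reads, with 6 in 3 libraries (vehicle rats 19 and 20 and ethanol rat 7). miR-103-2-5p, an annotated strand of 17 bases, was listed at 0 in all 12 libraries. The gel cut for these libraries kept RNA of 20 to 30 bases, a range that the annotated strand falls outside. The part of the cut in this absence was not tested. miR-107-5p had 2 reads in vehicle rat 9 and 1.5 in vehicle rat 10, and values between 4.18e-24 and 2.35e-09 in 7 other libraries. No fold change is given at these levels.

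The order of the 5 tested members was the same in nearly every rat. miR-101a-3p exceeded miR-101b-3p in 12 of 12 libraries, by a mean of 0.30 on the log2 scale or 1.23-fold. miR-101b-3p exceeded miR-103-3p in 12 of 12, by 0.86 or 1.82-fold. The step between miR-103-3p and miR-107-3p was smaller, 0.16 or 1.12-fold, about as large as its SD over libraries (0.13), and held in 11 of 12 libraries, vehicle rat 10 being the exception. miR-107-3p exceeded miR-101a-5p 111-fold, in 12 of 12 libraries. The neighbours were ranked on these same libraries, so the steps are given as a description with no test. The steps within a near-identical pair, like the ratios within a pair, depend on how reads matching both members were divided, which is not given in the sources used here.

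Ratios between members were taken within each library, where scaling between libraries has no part. The ratio of miR-107-3p to miR-103-3p, the pair set apart by G22C, was 0.939, 1.07, 0.842 and 0.856 in vehicle rats 9, 10, 19 and 20. In ethanol rats it ran from 0.780 in rat 3 to 0.954 in rat 7. Only in vehicle rat 10 did miR-107-3p exceed miR-103-3p. The mean ratio was 0.926 ± 0.102 (SD, n = 4) in vehicle and 0.880 ± 0.0667 (SD, n = 8) in ethanol. The log2 difference was -0.070 (95% interval -0.25 to 0.096), which did not pass the two-sided exact permutation test (p = 0.386, adjusted over 4 ratios p = 0.386). Without vehicle rat 10 it was -0.00075, and the difference in medians was 0.014 in the opposite direction.

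The ratio of miR-101b-3p to miR-101a-3p was tighter. It was 0.828, 0.892, 0.789 and 0.817 in vehicle rats 9, 10, 19 and 20. The ethanol rats ran from 0.768 in rat 7 to 0.851 in rat 3. The ratio stayed below 1 in all 12 libraries, and vehicle rat 10 was again the highest. Means of 0.832 ± 0.0435 (SD, n = 4) and 0.805 ± 0.0273 (SD, n = 8) gave a log2 difference of -0.047 (95% interval -0.13 to 0.032; two-sided exact permutation test, p = 0.220, adjusted p = 0.386). Without vehicle rat 10 the log2 difference was -0.012, so its size too rested on that rat.

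Between the arms of the Mir101a hairpin, the 5p to 3p ratio was 0.00325 to 0.0048 in vehicle rats and 0.00252 to 0.00453 in ethanol rats. The means were 0.00396 ± 0.00071 (SD, n = 4) and 0.00355 ± 0.000764 (SD, n = 8), and the log2 difference of -0.17 (95% interval -0.61 to 0.26) did not pass the two-sided exact permutation test (p = 0.358, adjusted p = 0.386). It ran from -0.073 without vehicle rat 19 to -0.26 without vehicle rat 20. Put as a share of both arms, miR-101a-5p made up 0.366% on average. By rat, the lowest share was 0.251% in ethanol rat 23 (95% Wilson interval 0.179% to 0.353%) and the highest was 0.478% in vehicle rat 19 (0.384% to 0.594%). The intervals cover counting error only. The 5p share was 0.00724% for miR-101b and 0.00883% for miR-107. These shares rest on 0 to 2 reads of the 5p arm per library, and miR-107-5p reached 1.5 reads or more only in vehicle rats 9 and 10. Among the 190 hairpins with both arms listed, the median share of the lesser arm was 1.87%, and 65 hairpins had a share below that of miR-101a.

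The ratio of the summed miR-101 3p arms to the summed miR-103 and miR-107 3p arms put one seed family against the other. It was 2.02, 1.70, 2.17 and 1.96 in vehicle rats 9, 10, 19 and 20, and 2.71, 2.37, 2.06, 2.15, 2.30, 2.01, 2.30 and 2.07 in ethanol rats 3, 4, 7, 8, 15, 16, 23 and 24. The miR-101 family was the larger in every rat, and 4 of 8 ethanol rats lay above all vehicle rats while 0 lay below them all. The mean ratio was 1.96 ± 0.195 (SD, n = 4) in vehicle and 2.24 ± 0.229 (SD, n = 8) in ethanol. The log2 difference was 0.19 (SE 0.089, 95% interval 0 to 0.40), a fold of 1.14, with a two-sided exact permutation p = 0.0545 and an adjusted p = 0.218 over the 4 ratios. Leaving out 1 rat at a time, the unadjusted exact permutation p ran from 0.0303 without vehicle rat 19 to 0.206 without vehicle rat 10, whose ratio was the lowest of the 12. It was also under 0.05 without ethanol rat 7 (0.0455), 16 (0.0333) or 24 (0.0455). Without vehicle rat 10 the log2 difference was 0.13, and without any 1 rat the adjusted p stayed at 0.121 or above. In the 8 rats that were not muscle-rich, the ratio was 1.70 in vehicle rat 10 and 2.06 to 2.71 in the 7 ethanol rats, and in the 4 muscle-rich rats it was 1.96 to 2.17 in vehicle and 2.01 in ethanol rat 16.

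**Figure D2:**
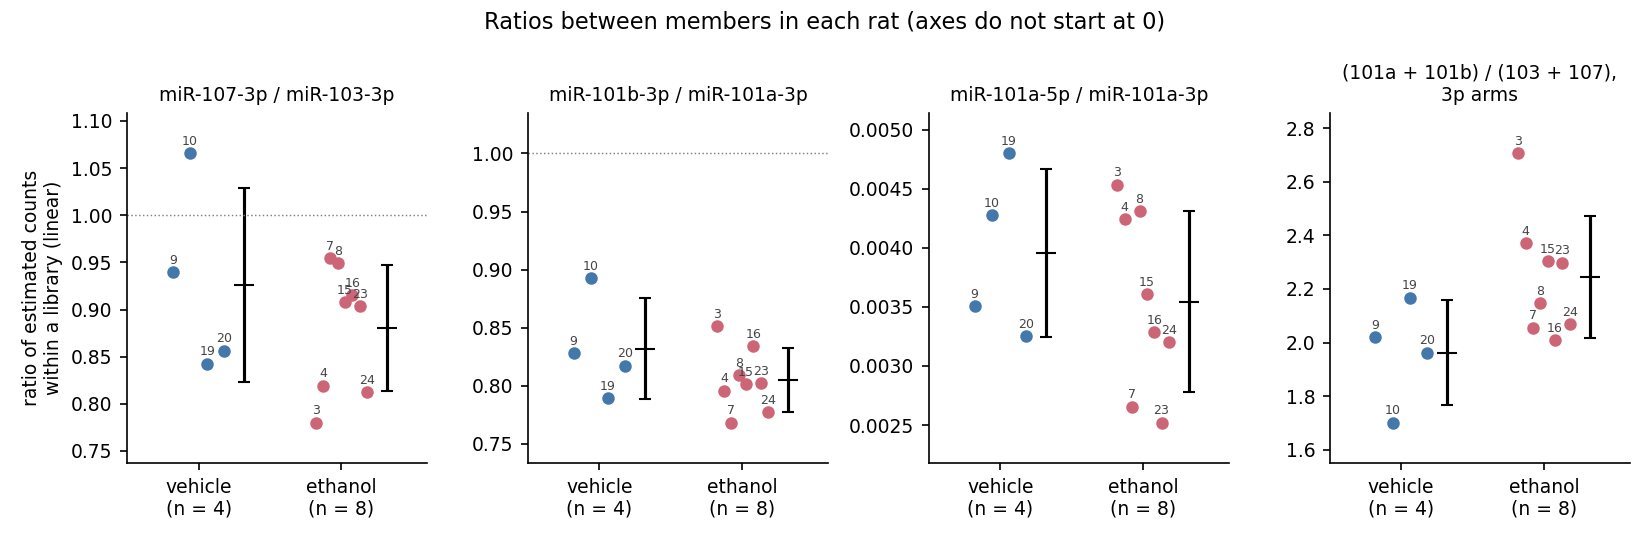
Ratios of estimated counts within each library (linear axes that do not start at 0), for the 4 ratios tested in 4 vehicle and 8 ethanol rats. Points are rats with their animal numbers, bars give the mean ± SD, and the dotted line marks a ratio of 1. Vehicle rat 10 is the highest for miR-107-3p to miR-103-3p, at 1.07, and the lowest for the family ratio, at 1.70.

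Some deposited counts of the members were not whole numbers. Counting tools can divide a read that matches several miRNAs among them. A value further than 0.01 from a whole number was called fractional. Fractional values were listed for miR-101b-3p and miR-103-3p in 12 of 12 libraries, for miR-101a-3p and miR-107-3p in 11, and for miR-101a-5p in 0. Over all 753 miRNAs, 74 (9.83%) were fractional in all 12 libraries, and among the 420 tested 71 (16.9%) were. The fractional part was at most 0.0120% of a 3p member's count, and without rounding the unadjusted p of miR-101a-3p in edgeR was 0.0512 and 16 miRNAs in place of 17 had an unadjusted p under 0.05. The fractional part is only the visible remainder and does not give the number of reads that were divided.

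A read divided only between the members of a pair leaves the sum of the pair whole. The sum of miR-103-3p and miR-107-3p was whole in 0 of 12 libraries, and that of miR-101a-3p and miR-101b-3p was whole in 0 of 12. For the scarce 5p arms, miR-103-1-5p and miR-107-5p, the sum was whole in 12 of 12, although it was 0 to 6 reads. In vehicle rat 10 the 3 reads were listed as 1.5 for each, and in vehicle rat 9 the 2 reads were given to miR-107-5p with 8.88e-16 left to miR-103-1-5p.

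How constantly 2 miRNAs kept their ratio was measured by the SD of their log2 ratio over the 12 libraries, with both groups pooled, as a description. Within a near-identical pair that SD also depends on how reads matching both members were divided, which is not given. For miR-101a-3p, miR-101b-3p had the smallest SD of all, 0.060, and 0 of 415 other tested miRNAs came closer. The next were miR-192-5p at 0.084, miR-340-5p at 0.089 and miR-15b-5p at 0.092, against a median of 0.28. For miR-101b-3p the nearest outside the families were miR-340-5p at 0.097, miR-434-5p at 0.11 and miR-192-5p at 0.11, against a median of 0.27.

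miR-103-3p and miR-107-3p kept their ratio less closely, with an SD of 0.13. For miR-103-3p, 48 of 415 others had a smaller SD than miR-107-3p had. The nearest to miR-103-3p were miR-434-3p at 0.071, miR-23b-3p at 0.077 and miR-186-5p at 0.079 (median 0.25). The nearest to miR-107-3p were miR-671 at 0.089, let-7a-5p at 0.091 and miR-370-3p at 0.099 (median 0.28), and 12 others came closer to it than miR-103-3p did. For miR-101a-5p the nearest were miR-450b-5p at 0.19, miR-339-5p at 0.21 and miR-17-5p at 0.22 (median 0.39), while its own 3p arm was at 0.29 with 38 others closer. Levels in 1 library share its total and its scaling, and low counts widen these SDs.

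**Figure D3:**
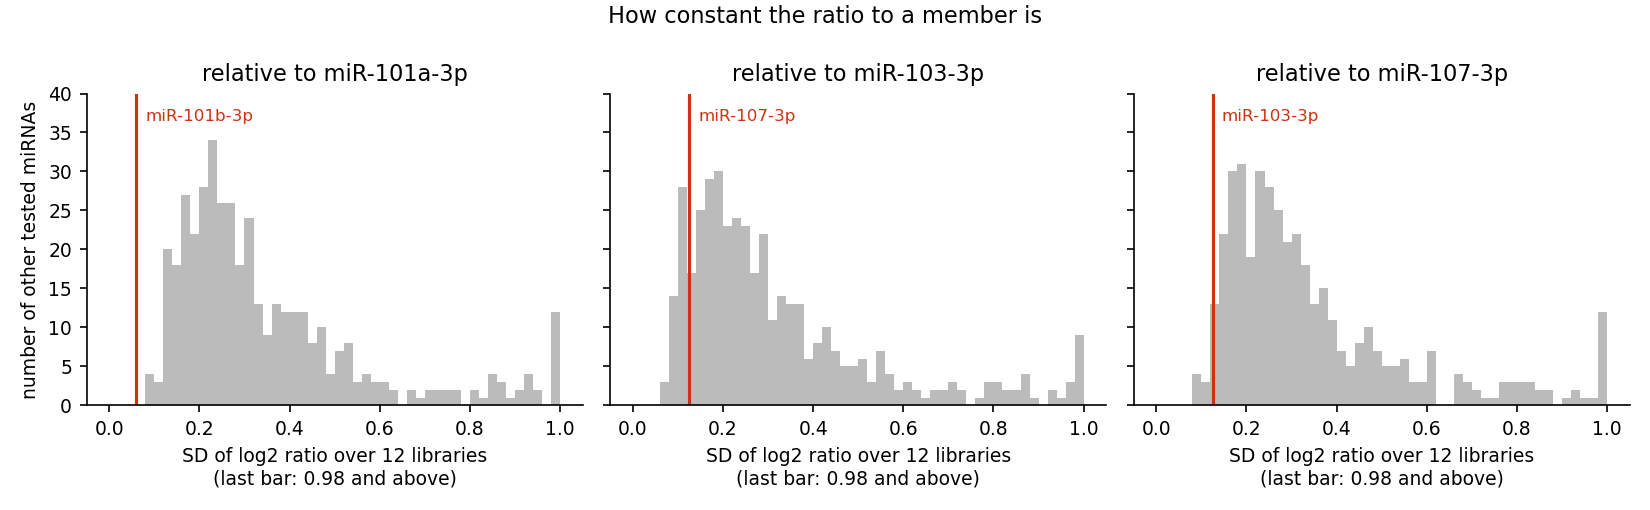
Histograms of the SD of the log2 ratio to miR-101a-3p, miR-103-3p or miR-107-3p over the 12 libraries, for the 415 tested miRNAs outside the families (vertical axis, number of miRNAs). The vertical line marks the near-identical partner, at 0.060 for miR-101b-3p with miR-101a-3p and at 0.13 for miR-103-3p with miR-107-3p.

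The spread of single members over the 12 libraries differed. The SD of log2 CPM was 0.085 for miR-103-3p, the 9th smallest of 420. It was 0.14 for miR-101a-3p, 0.13 for miR-101b-3p, 0.16 for miR-107-3p and 0.29 for miR-101a-5p, the 263rd smallest. The median of the 420 was 0.24, and among the 80 miRNAs with a mean of at least 1000 CPM it was 0.14, with miR-103-3p 7th smallest. The SDs of the 3p members other than miR-103-3p lay near that value.

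Other miRNAs of the files share seed bases with the members. The following are shown with bases 2 to 8 in capitals to be set against the members' seeds above.
miR-144-3p: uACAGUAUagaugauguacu
miR-935: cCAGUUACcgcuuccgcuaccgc
miR-16-5p: uAGCAGCAcguaaauauuggcg
miR-195-5p: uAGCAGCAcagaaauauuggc
miR-322-5p: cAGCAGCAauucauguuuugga

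Bases 2 to 7 of miR-144-3p, a miRNA of red cell precursors, are those of the miR-101 3p arms, and bases 2 to 7 of miR-935 are those of miR-101a-5p. miR-144-3p was at 43.8 ± 8.88 CPM (SD, n = 4) in vehicle and 46.9 ± 23.7 CPM (SD, n = 8) in ethanol. Its log2 fold change was 0.085 (SE 0.36). miR-935 was at 44.4 ± 9.32 and 43.0 ± 7.60 CPM, with a log2 fold change of -0.038 (SE 0.16). Both had an adjusted p of 0.997 (edgeR quasi-likelihood, Benjamini-Hochberg).

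The miR-15 and miR-107 group is a set of miRNAs known for arrest of the cell cycle that share the letters AGCAGC near the 5′ end. These letters began at base 1 in miR-103-3p and miR-107-3p and at base 2 in the others. Of the 688 mature sequences matched to a listed miRNA, 8 held AGCAGC from base 1 or 2. Of 10 names in the group, 8 were listed, and miR-15a-5p and miR-424-5p were not matched by name. Of the 7 that were tested, 0 had an unadjusted p under 0.05, 4 estimates were above 0 and 3 below, and the median log2 fold change was 0.030 against -0.015 over all 420.

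Leaving out miR-103-3p and miR-107-3p, the estimates were 0.095 for miR-15b-5p, 0.030 for miR-16-5p, 0.097 for miR-195-5p, 0.14 for miR-322-5p and -0.022 for miR-497-5p. miR-16-5p was the most abundant of the group, at 5919 ± 652 CPM (SD, n = 4) in vehicle and 6043 ± 428 CPM (SD, n = 8) in ethanol, and so exceeded the sum of miR-103-3p and miR-107-3p. miR-503-5p, read 0 to 6 times, was too rare to test.

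**Figure D4:**
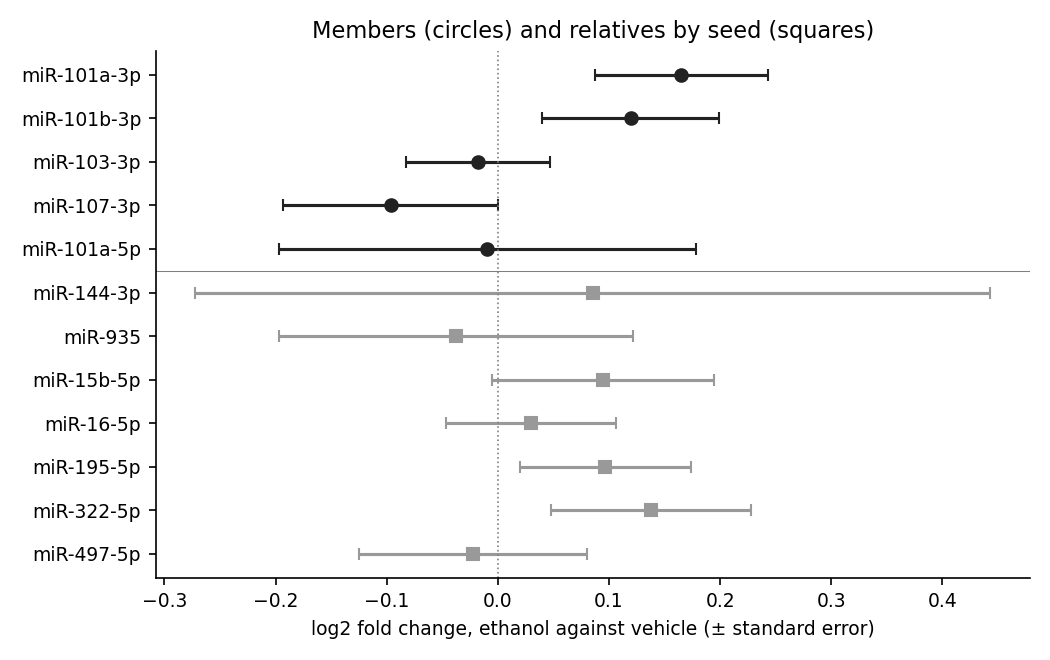
Log2 fold change of ethanol against vehicle with its standard error (horizontal axis) for the 5 tested members (circles) and the 7 tested relatives by seed (squares). The largest member estimate is 0.17 for miR-101a-3p, and no adjusted p is under 0.05.

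The tissue was checked by markers of cell types, summed as CPM per rat. Of the neuronal list (miR-124-3p, miR-128-3p, miR-132-3p, miR-138-5p and miR-9-5p), 4 of 5 were matched by name, and the sum was 11556 to 13567 in vehicle and 9520.5 to 13764 CPM in ethanol rats. The unmatched name was miR-9-5p. The miRNA listed as miR-9a-5p was measured and is not in the sum. Oligodendrocyte markers, 3 of 3 matched, ranged from 9332 to 17658 and from 9827 to 19011 CPM. Those of the choroid plexus, 3 of 3, ranged from 28978 to 50267 and from 16516 to 70880.1 CPM. Neuronal and glial markers were thus present in every rat, and choroid plexus markers were present in every rat too.

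Blood cell markers, 6 of 7 matched and miR-144-3p among them, ranged from 447 to 592 and from 311 to 741 CPM. The range of vessel markers, 3 of 3, was 36706 to 46039 and 30812 to 65565 CPM. Of the ethanol rats, 5 of 8 were above every vehicle rat in vessel markers and 2 were below. The sum of hindbrain and spinal cord markers (miR-10a-5p, miR-10b-5p and miR-196a-5p), 3 of 3, was 2052 to 2327 and 1030 to 8954 CPM, with 6 of 8 ethanol rats above every vehicle rat and 2, rats 15 and 23, below. Ethanol rats 15 and 23 were above every vehicle rat for miR-101a-3p. So were ethanol rats 3, 4, 7 and 24, which were above every vehicle rat in these markers. Of the others above in these markers, rat 16 was below every vehicle rat for miR-101a-3p and rat 8 was within the vehicle range. Choroid plexus sums were 16516, 17578 and 29366 CPM in ethanol rats 3, 15 and 23, where miR-101a-3p was 3985, 3804 and 4298 CPM. They were 38823 to 48119 CPM in ethanol rats 4, 7 and 24, with miR-101a-3p at 3556 to 3712 CPM. Ethanol rats 16 and 8 had 58242 and 70880.1 CPM, with miR-101a-3p at 3096 and 3470.2 CPM. Among vehicle rats, 10 had the lowest and 19 the highest of both. Muscle markers, 5 of 5 matched, were described above, and their log2 sum was lower by 1.89 on average in ethanol rats. In 2 lists, 1 marker each had an unadjusted p under 0.05 in edgeR, against 4.05% of the 420 miRNAs. These were 1 of 3 tested muscle markers and 1 of 2 tested hindbrain and spinal cord markers. For each of the 7 sums the groups overlapped and the two-sided exact permutation test did not pass, with p from 0.0848 for muscle to 0.766 for blood cells. Their part in the levels of the members was not tested.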

How the data were processed

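Small RNA libraries (TruSeq) were made from 1 µg of total RNA, gel-purified at 20 to 30 bases and sequenced for 37 cycles in sets of 8. The set of each library is not in the labels. The authors deposited estimated counts per mature miRNA for each library. The submitters' processing notes name cutadapt, Partek and rn5, and how reads matching several miRNAs were divided is not given in the sources used here.

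Groups were taken from the labels. Estimated counts were rounded, and a miRNA was left out when 10 or more libraries held fewer than 10 reads of it, which retained 420 of 753. edgeR 4.0.16 in R 4.3.3 was used for TMM scaling (factors 0.949 to 1.05) and quasi-likelihood tests with Benjamini-Hochberg adjustment over the 420. A t-test modelled on the study's steps was run as an alternative, beside DESeq2 1.42.0 and limma 3.58.1. It scaled each library to its own median and took log2 values. The study's methods describe scaling to the group median and mean centring, with t-tests ranked by unadjusted p, and name no log step. Log2 CPM used a prior count of 2. Exact permutation tests (Python 3.11.15, scipy 1.17.1) were two-sided, over all 495 splits of 12 libraries into 4 and 8. Intervals of ratios are the shifts that test did not reject, in steps of 0.001. The edgeR fit was run on simulated counts with planted changes larger than any estimate of a member here. That run does not show how changes of the members' size would be called. Members and lists were chosen with earlier results of these data known. Genes named were the members, their seed relatives and, for each member, the 3 miRNAs of most constant ratio. Replicates are separate rats. Mature and hairpin sequences came from RefSeq GRCr8, with 688 of 753 names matched.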

Additional observations from a re-analysis of the deposited data

How the results depend on the processing

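No paired analysis was made, because the labels name no pairing between vehicle and ethanol rats. Each member kept an adjusted p above 0.05 under all 24 alternatives. Members with an unadjusted p under 0.05 numbered 0 in the reported fit and 1, miR-101a-3p, with DESeq2 size factors, with no filter, with at least 10 reads in at least 10 libraries, with filterByExpr and with DESeq2 (1 each), and 0 to 1 leaving out 1 rat, the 1 being without vehicle rat 19, ethanol rat 8 or ethanol rat 16. With the 4 muscle-rich libraries left out, an alternative added after the data were seen, it was 2, miR-101a-3p and miR-107-3p. Over all miRNAs, those with an adjusted p under 0.05 numbered 0, against 1 with DESeq2 and 0 to 3 leaving out 1 rat, with 3 without ethanol rat 16. Those with an unadjusted p under 0.05 numbered 17, against 11 with the library total as a covariate and 5 to 21 leaving out 1 rat, the counts being 10 without vehicle rat 9, 5 without vehicle rat 20, 9 without ethanol rat 3, and 11 without ethanol rat 4 or ethanol rat 8. Of the 17, 7 were higher in ethanol, against 11 of 18 with DESeq2 size factors, 4 of 19 with library totals, 12 of 23 with no filter, 12 of 16 with either stricter filter, 10 of 16 with DESeq2 and 15 of 19 without the muscle-rich libraries. The direction changed for 2 members with estimates near 0. The log2 fold change of miR-101a-5p became 0.00075 with no filter, 0.020 with at least 10 reads in at least 10 libraries, 0.011 with filterByExpr and 0.043 without the muscle-rich libraries, and was -0.11 to 0.15 leaving out 1 rat. That of miR-103-3p became 0.011 with at least 10 reads in at least 10 libraries and 0.0031 with filterByExpr, and was -0.051 to 0.0086 leaving out 1 rat. Leaving out 1 rat, miR-101a-3p ran from 0.13 to 0.20, miR-101b-3p from 0.090 to 0.15 and miR-107-3p from -0.15 to -0.0033. The log2 difference in the ratio of miR-107-3p to miR-103-3p turned to 0.014 as a difference in medians, and was -0.11 to -0.00075 leaving out 1 rat. Leaving out 1 rat, the log2 difference ran from -0.071 to -0.012 for miR-101b-3p to miR-101a-3p, from -0.26 to -0.073 for the arms of miR-101a and from 0.13 to 0.24 for the family ratio. These 3 ratios kept their direction and an adjusted p above 0.05 under the alternatives run, and the order of the members did not change. Unless said above, the cause was not tested. Of the 9 members, 4 (all 5p arms) were near or under a floor of 3 counts, where no comparison was made.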

Other observations

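The near-identical pairs of the files put the constancy of the family ratios in context. Among tested miRNAs of equal length whose mature sequences differ at 1 or 2 bases there were 31 pairs, whose SD of the log2 ratio over the 12 libraries had a median of 0.17 and ran from 0.048 for miR-27a-3p with miR-27b-3p to 1.68. miR-101a-3p with miR-101b-3p had the 2nd smallest, 0.060, and miR-103-3p with miR-107-3p the 9th smallest, 0.13. These pairs were collected after the values were seen, several of them share members, and they are given as a description. How reads matching both miRNAs of a pair were divided is not given, and the SDs depend on it.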
